A study of Canis lupus familiaris with 8 samples.

Results

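Healthy canine leg skin was described from 5 of the 8 biopsies of a study of pigment loss in dogs. The members were chosen by their label alone, as the biopsies given as healthy leg margins, and no gene value entered the choice. The other 3 biopsies came from dogs with Vogt-Koyanagi-Harada syndrome or vitiligo and were not used. A custom NanoString probe set covered 160 canine genes in each biopsy, and with this method a fluorescent barcode is counted on each captured RNA molecule without amplification.

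Biopsy 1 was taken from a spayed female Alaskan Malamute aged 6 years. Biopsy 2 was from a neutered male German Shepherd cross aged 12 years, and biopsy 3 from a spayed female Labrador Retriever aged 8 years. Biopsy 4 was from a neutered male Golden Retriever aged 11 years, and biopsy 5 from a spayed female Siberian Husky cross aged 11 years. None of the 5 dogs had been given a labelled treatment, and all of them had been neutered. No breed was shared by any of the dogs, and only the dogs of biopsies 4 and 5 were of the same age, so that breed, age and dog cannot be told apart. The skin came from the margins of amputated legs and had been fixed in formalin, embedded in paraffin and archived. The reason for each amputation is not given in the sources used here, nor is coat colour or the depth of each section.

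Skin is built from an epidermis of keratinocytes over a dermis of collagen, vessels and fibroblasts. Keratinocytes divide in the basal layer, where they use the keratin pair of KRT5 and KRT14, and change to the pair of KRT1 and KRT10 as they move outward. They then lay down involucrin, loricrin and filaggrin, which form the cornified barrier. Melanocytes at the base of the epidermis and in hair follicles make pigment with tyrosinase and related enzymes, and resident mast cells, macrophages, Langerhans cells and T cells keep watch over the tissue. In whole biopsies, fewer cells of a type and less RNA per cell cannot be told apart.

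The 160 genes together gave 209889 to 675018 raw counts per biopsy, with biopsy 3 the highest and biopsy 1 the lowest. The 6 positive controls, which are added RNAs of known amount, ran the opposite way and summed to 58896 counts in biopsy 3 and 104905 in biopsy 1. Background was set in each biopsy as the mean plus 2 SD of the 8 negative controls, and lay between 22.8 counts in biopsy 3 and 27.8 counts in biopsy 1. Levels of a gene were compared between biopsies as scaled counts, which are raw counts divided by the geometric mean of the 4 housekeeping genes of the biopsy relative to the 5 biopsies. The divisor was 1.87 in biopsy 3 and between 0.825 and 1.03 in biopsies 2, 4 and 5, and it was lowest in biopsy 1. Ranks of genes within a biopsy need no scaling, but probes differ in efficiency, so that a rank is one of barcode counts and not of transcript number.

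Genes of the epidermis and of the dermal matrix led the counts in every biopsy. The highest median rank among the 160 genes was shared by COL1A1, the main chain of type I collagen, and KRT10, the suprabasal keratin, each with a median rank of 2, followed by KRT5, the basal keratin, with a median rank of 3. The first place was held by KRT10 in biopsies 1 and 3, by COL1A1 in biopsies 2 and 5 and by KRT5 in biopsy 4. Thus epidermal and dermal transcripts exchanged the lead between biopsies, while 8 genes stayed among the 10 highest in every biopsy. These were B2M, COL1A1, CXCL14, IGFBP5, KRT10, KRT5, LORICRIN and RPL13A.

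The 20 genes with the highest median rank were COL1A1, KRT10, KRT5, B2M, RPL13A, KRT1, LORICRIN, CXCL14, KRT14, IGFBP5, CXCL12, PECAM1, FLG, CXCL8, KLK7, FOXO3A, IVL, HIF1A, CCL2 and CCL23, and 14 of them were among the 20 highest in every biopsy. The 5 highest genes of a biopsy held between 55.2% and 66.2% of its counts. All 5 measured genes of epidermal differentiation and all 4 of the basal and hyperproliferative keratinocyte list were above background in every biopsy. So were all 5 of the fibroblast and matrix list and the endothelial gene PECAM1, beside 60% of all 160 genes. The defining markers of epidermis, dermal matrix and vessels were thus present in each biopsy, whereas that of Langerhans cells, CD207, was below background in each.

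**Figure D1:**
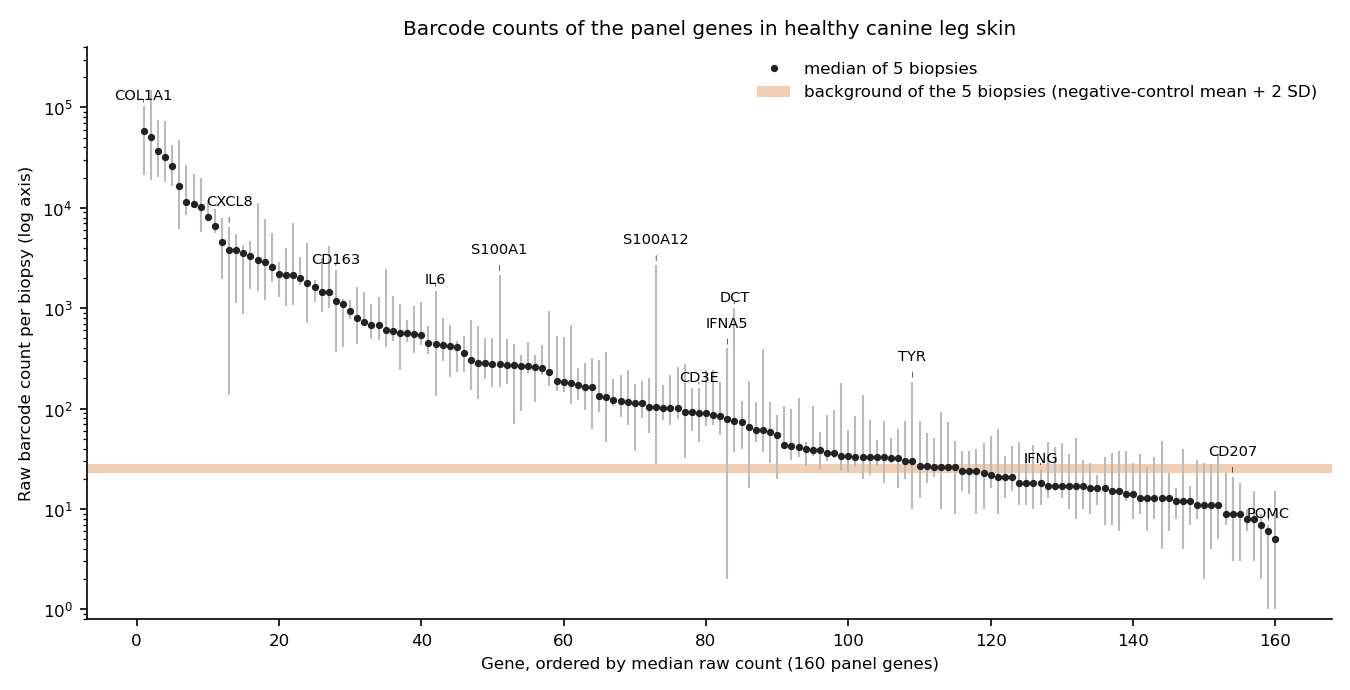
Raw barcode counts (log axis) of the 160 panel genes in the 5 healthy biopsies, ordered by median raw count. Points are medians, vertical lines run from the lowest to the highest biopsy, and the band spans the background of the 5 biopsies, from 22.8 to 27.8 counts. COL1A1 leads, the medians of CD207 and POMC lie below the band, and the long lines of CXCL8, S100A1, S100A12, DCT and IFNA5 mark genes that differed widely between dogs.

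COL1A1 gave 30081, 123902, 44136, 49508 and 56339.9 scaled counts in biopsies 1 to 5. Biopsy 2 stood above the rest at 2.20 times the next biopsy, and biopsy 1 was the lowest. COL1A1 made up 10.2% to 27.6% of the counts of a biopsy.

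KRT10 gave 41042, 76701, 79574, 57302 and 18464 scaled counts, and KRT1, its partner, 11459, 25878, 25134, 18837 and 5900.3. Biopsies 2 and 3 were the highest and biopsy 5 the lowest for both keratins. The raw count of KRT1 was 0.279 to 0.337 times that of KRT10, a range of 1.21-fold, although each gene ranged over more than 4-fold. This ratio is taken within a biopsy and does not depend on scaling.

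The basal keratins followed another order. KRT5 gave 29786, 24766, 39739, 73362 and 35963 scaled counts and KRT14, with which it forms filaments, gave 14394, 6892, 10555, 20399.5 and 9214. Biopsy 4 was the highest and biopsy 2 the lowest for both. The ratio of KRT5 to KRT14 was 3.59 to 3.90 in biopsies 2 to 5 and 2.07 in biopsy 1. The ratio of KRT10 to KRT5, of suprabasal over basal keratin, ran from 0.513 in biopsy 5 to 3.10 in biopsy 2, a range of 6.03-fold.

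The barrier genes did not move as a unit. LORICRIN, the main protein of the cornified envelope, gave 16011, 14922, 14165, 9545 and 9004 scaled counts, whereas FLG, the filaggrin precursor that bundles keratin, gave 2067, 3627, 6006, 3195 and 6121. Biopsy 1 was thus the highest for LORICRIN and the lowest for FLG, and the ratio of LORICRIN to FLG fell from 7.75 in biopsy 1 to 1.47 in biopsy 5. IVL, the early envelope protein involucrin, gave 3312, 1052, 1971, 4817 and 3438 scaled counts. KLK7, a protease that releases cells from the skin surface, gave 2756, 1354, 2372, 6246 and 3695. The order of the biopsies was the same for IVL and KLK7, with biopsy 4 the highest and biopsy 2 the lowest. The basal keratins had the same extremes.

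CXCL14 and CXCL12 had the highest median ranks among the chemokines. Of 9 CXC and CX3C chemokines 6 (66.7%) were above background in all 5 biopsies, and of 20 CC chemokines 13 (65%) were. Both shares were near the 60% of all 160 genes. CXCL14, which epithelia secrete steadily, gave 15396, 12454, 9869.8, 12212 and 20919 scaled counts, a range of 2.12-fold with biopsy 5 the highest. CXCL12, a stromal chemokine that retains CXCR4-bearing cells, gave 7849.8, 7484, 5258, 7517 and 6873, with biopsy 3 the lowest. Before scaling biopsy 3 had the highest count, 9823, and the lowest biopsy was the same under 4 of 6 other scalings. IGFBP5, a binding protein of insulin-like growth factors, gave 11342, 13524, 6424, 8731 and 7456, with the same biopsy the lowest. Its raw count was also highest there, at 12002, and its lowest biopsy was the same under 4 of the 6 other scalings. PECAM1, the endothelial adhesion molecule CD31, gave 2756, 7047, 4225, 3925 and 4392, and biopsies 2 and 1 were its extremes as they were for COL1A1.

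Above background in all 5 biopsies were 96 of the 160 genes (60%). A further 54 genes were above it in some biopsies, and 10 genes (6.25%) in none. Among the 10 were TRKA, the nerve growth factor receptor, CD27, a costimulatory receptor of lymphocytes, PRF1, the pore protein perforin, CD207, the Langerhans cell lectin langerin, FOXP3, the transcription factor of regulatory T cells, the cytokines IL9 and IL17A, TRAT1, an adaptor of the T cell receptor, and POMC, the precursor of melanocortins. POMC gave 1 to 7 raw counts and IL17A 2 to 9. At these counts a transcript was not detectable at this depth, which does not show that it is absent.

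The number of genes above background was 103, 105, 148, 116 and 114 in biopsies 1 to 5, and it was the highest in the biopsy with the most counts. Of the 28 genes above background in a single biopsy, 26 were above it in biopsy 3, CRHR2, a receptor for corticotropin-releasing hormone, in biopsy 1, and CTSW, a protease of cytotoxic lymphocytes, in biopsy 2. For 19 of the 26 genes the scaled count in biopsy 3 was under the scaled background of every other biopsy, and for all 26 under that of at least 1 other. The scaled background was 12.2 in biopsy 3 against 23.4 to 39.2 in the others. The scaled count was the highest in biopsy 3 for 5 of the 26 genes. Without biopsy 3, 36 genes were below background in every biopsy. Just under the limit for all 5 biopsies were IL1B, KLRD1 and CD244, whose lowest raw count was 0.863, 0.899 and 0.935 times background, and just over it were S100A12, CCL3 and CD6 at 1.01, 1.04 and 1.08 times.

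Many genes of cytotoxic lymphocytes were near background. None of the 10 measured cytotoxic and NK cell genes was above background in all 5 biopsies, 9 were in some, and PRF1 was in none. Of all 160 genes, 60% were above it in all 5. KLRD1, the NK receptor subunit CD94, gave 25, 39, 58, 48 and 32 raw counts, and CD244, a receptor of NK cells, gave 26, 33, 85, 44 and 27. Each missed background in biopsy 1 alone. GZMB, the cytotoxic protease granzyme B, gave 11, 23, 46, 18 and 12 raw counts and passed background in biopsy 3 only.

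Of 6 T cell genes, 3 (50%, beside 60% of all 160 genes) were above background in all 5 biopsies, 2 in some and FOXP3 in none. CD3E, a chain of the T cell receptor complex, gave 66.2, 139, 85.1, 103 and 70.6 scaled counts, with biopsy 2 the highest, and had a median rank of 84. CD8A, the coreceptor of cytotoxic T cells, gave 59.1, 52.1, 56.2, 48.7 and 38.7, and its range of 1.53-fold left the biopsies close together. TBX21, the transcription factor of type 1 T cells, gave 9, 26, 62, 21 and 20 raw counts and was above background in biopsy 3 only. Of 4 B and plasma cell genes only BLK, a kinase of B cell receptor signaling, was above background in all 5.

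CD163, CPA3 and MS4A2 gave counts well above background. CD163, the scavenger receptor of tissue macrophages, gave 518, 2375, 1289, 1173 and 1145 scaled counts, with biopsy 2 the highest and biopsy 1 the lowest. The mast cell list was above background in all 3 members, beside 60% of all 160 genes. One of them, HDC, was near it with 32, 40, 47, 41 and 27 raw counts, much as KLRD1 and CD244 were. CPA3, the mast cell carboxypeptidase, gave 325, 433, 285, 468 and 257 scaled counts, and MS4A2, the beta chain of the IgE receptor, gave 398, 273, 245, 260.4 and 257. MS4A2 was higher in biopsy 1 than in the other 4, which lay within 245 to 273, whereas CPA3 was highest in biopsy 4. None of the 4 dendritic and Langerhans cell genes was above background in all 5 biopsies. Among them, CD207 gave 6, 9, 21, 12 and 3 raw counts and CCL17, a chemokine for skin-homing T cells, 23, 30, 61, 34 and 34.

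The cytokines of T cell responses were mostly near background. IFNG, the interferon gamma of T and NK cells, gave 11, 18, 25, 19 and 12 raw counts and passed background in biopsy 3 alone. Among the other type 1 cytokines, IL15, a survival factor for memory T and NK cells, was above background in all 5 biopsies with 234, 118, 153, 174 and 159.6 scaled counts, and TNF with 54.9, 41.2, 56.2, 38.5 and 66.7. Of the type 2 and regulatory list, TSLP, an epithelial alarm cytokine, and IL10, which dampens inflammation, were above background in all 5, and IL13 and IL4 were not. Of the 4 type 17 genes only IL6 was above background in all 5. The shares above it in all 5 were 50% for the type 1 and type 2 lists and 25% for type 17, beside 60% of all 160 genes.

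The 96 genes above background in all 5 biopsies differed in how much they varied. The SD of log2(scaled count + 1) over the 5 biopsies had a median of 0.46, from 0.09 to 2.13, and the highest biopsy was a median 2.23 times the lowest. The SD that counting error alone would give had a median of 0.09, and 84 of the 96 genes (87.5%) had an SD at least 2 times their own counting SD. The coefficient of variation of scaled counts had a median of 31.8%. The range was under 2-fold for 37 genes (38.5%), at least 4-fold for 20 genes (20.8%) and at least 10-fold for 4. TACR1, SFRP2 and CCL8 lay just under the 4-fold limit at 3.72, 3.94 and 3.96, and CCL5, CCL21 and COL1A1 just over it at 4.04, 4.06 and 4.12. All of these differences include the spread between dogs, between fixed blocks and between assays, since each dog gave 1 biopsy that was measured on 1 occasion.

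**Figure D2:**
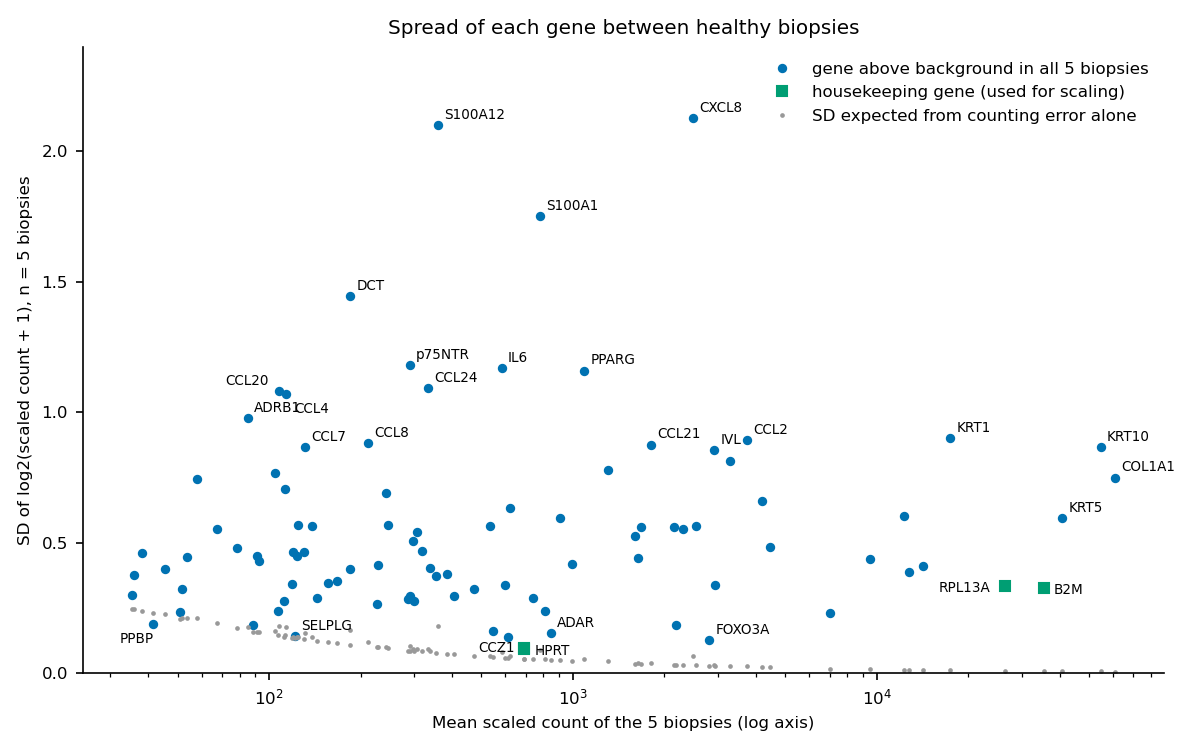
SD of log2(scaled count + 1) over the 5 healthy biopsies against the mean scaled count (log axis) for the 96 genes above background in all 5. Blue points are genes, green squares are the housekeeping genes that set the scaling, and grey points give the SD from counting error alone, with a median of 0.09. CXCL8, S100A12, S100A1 and DCT stand at the top, with SDs of 2.13, 2.10, 1.75 and 1.44, and FOXO3A and ADAR lie near the floor.

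The 8 genes with the smallest SD were HPRT, CCZ1, FOXO3A, ADAR2, SELPLG, ADAR, DNMT1 and SLC6A2, none of which ranged over more than 1.43-fold. HPRT and CCZ1 are housekeeping genes that entered the scaling, so their small SD is partly built in. When each was set against the other 3 housekeeping genes, HPRT ranged over 1.25-fold and CCZ1 over 1.26-fold, whereas B2M, the light chain of MHC class I, ranged over 2.22-fold and RPL13A, a ribosomal protein, over 2.26-fold. The raw ratio of RPL13A to B2M ran from 0.433 in biopsy 2 to 1.45 in biopsy 1. The 4 reference genes thus did not keep a fixed proportion to each other.

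FOXO3A, a transcription factor of stress resistance, did not enter the scaling and gave 2595, 2999.5, 3004, 2973 and 2507 scaled counts, a range of 1.20-fold. ADAR, an enzyme that edits adenosine in double-stranded RNA, gave 995, 879, 777, 799 and 774, and DNMT1, which maintains DNA methylation, gave 507, 465, 561, 627 and 563. The biopsies lay close together for all 3 genes. This flatness is relative to the housekeeping scaling. With no scaling or with positive-control scaling, none of these 8 genes was among the 8 least variable.

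The 15 genes with the largest SD were CXCL8, S100A12, S100A1, DCT, p75NTR, IL6, PPARG, CCL24, CCL20, CCL4, ADRB1, KRT1, CCL2, CCL8 and CCL21, with an SD of 0.88 or more. Of these, 6 are chemokines of the CC family. Of the 13 CC chemokines above background in all 5 biopsies, 6 ranged over at least 4-fold, beside 20.8% of all 96 genes. At least 11 of the 15 genes were again among the 15 most variable under each other scaling, pseudocount or background treatment and with each dog left out.

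**Figure D3:**
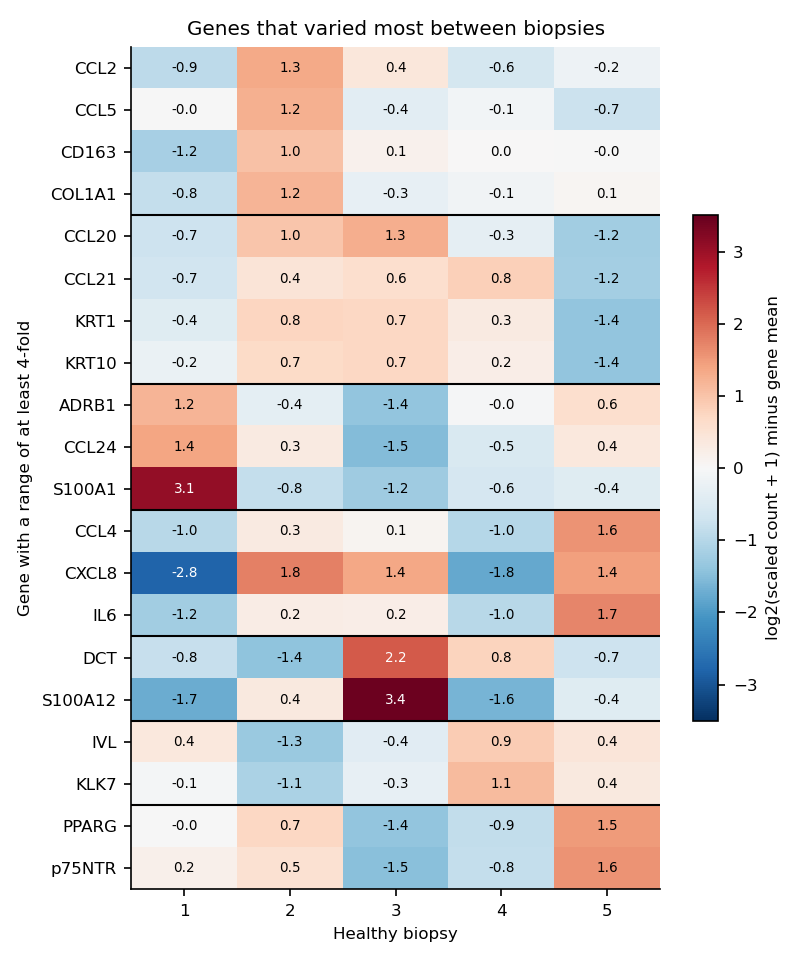
Deviation of log2(scaled count + 1) from the gene's mean in each healthy biopsy for the 20 genes with a range of at least 4-fold. Rows are genes, columns are biopsies 1 to 5, red is above and blue below the gene's mean, and black lines separate the 7 groups formed by average linkage. S100A1 is high in biopsy 1, DCT and S100A12 in biopsy 3, PPARG and p75NTR in biopsy 5, and CXCL8 is low in biopsies 1 and 4.

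Neuroendocrine genes spanned nearly the whole range. Of 8 measured, 5 (62.5%) were above background in all 5 biopsies, near the 60% of all 160 genes, 2 in some and POMC in none. CYP1B1, an enzyme of steroid and xenobiotic metabolism, gave 1470.0, 2597, 1855, 1758 and 3877 scaled counts, with biopsy 5 the highest. HSD11B1, which regenerates active cortisol, gave 345, 1096, 589, 648 and 432, with biopsy 2 the highest and biopsy 1 the lowest, the same extremes as COL1A1 and CD163. AHR, the receptor that induces CYP1B1, gave 1107, 1354, 644, 1063 and 804 and did not follow it. CRHR1, the main receptor for corticotropin-releasing hormone, and MC2R, the adrenocorticotropin receptor, passed background in 2 biopsies each.

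Growth factors of the matrix were steadier than collagen. TGFB1, a driver of matrix production, gave 696, 993, 587, 779 and 649.9 scaled counts, a range of 1.69-fold beside 4.12-fold for COL1A1. TGFB2 ranged over 1.69-fold and TGFB3 over 1.76-fold, and all 3 were lowest in biopsy 3. Before scaling biopsy 3 had the highest counts of all 3, at 1097, 427 and 195. The lowest biopsy was the same under 4, 3 and 4 of the 6 other scalings. In the basal and hyperproliferative keratinocyte list, SERPINB2, a protease inhibitor of stressed keratinocytes, gave 2640.1, 1497, 1700.5, 1651 and 887 scaled counts. VGLL3, a transcriptional cofactor linked to skin inflammation, gave 1625, 2297, 879, 1334 and 1863. Their highest biopsies were 1 and 2, neither of which was the highest for KRT5 and KRT14.

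The 20 genes fell into 7 groups by the shape of their profile over the 5 biopsies. With 5 biopsies many genes will share a shape, and the grouping is a description with no test. The order of the biopsies was compared, and the likeness of a pair of genes was given as the root mean square difference of their centred log2 values. By this measure the closest pairs were KRT1 with KRT10 at 0.09, PPARG with p75NTR at 0.13, CCL4 with IL6 at 0.15, KLK7 with IVL at 0.24 and CD163 with COL1A1 at 0.26.

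CXCL8, the chief chemokine for neutrophils, varied more than any other of the 96 genes by SD. It gave 194, 4645, 3482, 394 and 3698 scaled counts. Biopsies 2, 3 and 5 were high and biopsies 1 and 4 low, with no value between 394 and 3482, and the highest was 23.9 times the lowest. Within a biopsy CXCL8 ranked between 14 and 58 of the 160 genes.

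IL6, a cytokine of acute inflammation, gave 189, 527, 524, 226 and 1449 scaled counts, a range of 7.68-fold. CCL4, a chemokine for monocytes and T cells, gave 45.1, 113, 95.3, 44.2 and 271, a range of 6.13-fold. Biopsies 1 and 4 were again the lowest, and biopsy 5, not biopsy 2, was the highest for both. The raw ratio of CXCL8 to IL6 was 1.03 in biopsy 1 and 8.81 in biopsy 2, so the 2 genes did not keep proportion.

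Biopsies 1 and 4 were the lowest pair in 14 of the 96 genes (14.6%), which were CXCL8, CXCL16, IL6, CCL2, CCL4, CCL7, CCL8, CCL23, CSF3R, S100A12, CYP1B1, FLG, HPRT and PECAM1. Under housekeeping scaling other pairs were the lowest as often, with biopsies 1 and 5, 2 and 3, and 3 and 5 each the lowest in 15 genes (15.6%). By list, the 14 genes held 5 of the 13 CC chemokines above background in all 5 biopsies. They also held 2 of the 6 CXC and CX3C chemokines and 2 of the 3 neutrophil genes. Among them were 0 of 2 type 1 cytokines, 0 of 3 T cell, 0 of 3 mast cell and 0 of 2 macrophage and monocyte genes. None of the 5 fibroblast and matrix genes was among them. CCL2, which draws monocytes, gave 1683, 7990.2, 4158, 2050.2 and 2781 scaled counts, and CCL8, a related chemokine, gave 100, 367, 237, 92.8 and 265. Biopsy 2 was the highest for both. CCL7, of the same family, gave 67.6, 156.3, 194, 53.2 and 185, with biopsies 2, 3 and 5 close together. The pair of biopsies 1 and 4 was singled out after its values were seen, and its share of genes moved with the scaling. It was the lowest pair in 29 of the 96 genes without scaling and in 40 with positive-control scaling, where biopsies 1 and 2 came next with 23 and 26. With trimmed-mean (TMM) and median-of-ratios scaling it also led, with 19 and 18 genes against 15 and 14 for the next pair. With library-total scaling it had 14 against 29 for biopsies 2 and 3. With housekeeping scaling without B2M it had 14 against 20 for biopsies 1 and 5.

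Directions between biopsies are relative to the housekeeping genes. With positive-control scaling the median gene moved by 1.46 on the log2 scale in biopsy 3, and that biopsy became the highest in 88 of the 96 genes. The highest biopsy was the same under all 6 other scalings for S100A1, S100A12, DCT, PPARG, p75NTR, IL6, CCL4, CCL20 and CCL24, under 5 for COL1A1, IVL and KLK7, under 4 for KRT10, KRT5 and KRT14 and under 3 for KRT1 and CXCL8. The lowest biopsy was the same under all 6 for KRT1, KRT10, COL1A1, IVL, KLK7, CD163 and CXCL8. For LORICRIN and CXCL12, which ranged little, the highest biopsy was the same under only 2 and 1 of the 6.

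The 3 neutrophil genes differed in their profiles. S100A12, a calcium-binding alarm protein of neutrophils, gave 39.4, 171, 1444, 43 and 99.6 scaled counts. Biopsy 3 was 8.45 times the next biopsy, and the other 4 ranged over 4.33-fold. CSF3R, the receptor for the neutrophil growth factor G-CSF, gave 97.2, 139, 131, 78.1 and 174, and PPBP, a platelet and myeloid chemokine, gave 43.6, 36.4, 46.6, 45.3 and 34.8. Biopsy 3 was within the range of the other 4 for CSF3R and 1.03 times the next for PPBP. In biopsies 1 and 4 S100A12 was close to background, at 28 and 38 raw counts, so that its range of 36.6-fold rests on small counts at the low end.

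Biopsy 2 led a mixed group of genes. COL1A1, CD163, CCL2 and CCL5, a chemokine for T cells, formed the group that was highest in biopsy 2. The highest biopsy was the same under 5 of the 6 other scalings for COL1A1 and CCL5 and under 4 for CD163 and CCL2. Before scaling CD163 and CCL2 were highest in biopsy 3. CCL5 gave 50.7, 121, 39.1, 47.5 and 30 scaled counts, so that biopsy 2 was 2.39 times the next. Over all 96 genes, biopsy 2 was the highest biopsy in 27 (28.1%), more than any other biopsy, but with library-total scaling it was the highest in 9. Outside the 20 genes, SFRP2, a secreted WNT antagonist made by dermal fibroblasts, was the gene nearest to COL1A1 with a difference of 0.14 and gave 53.5, 211, 64.2, 82.6 and 110.3 scaled counts. Its order of biopsies was that of COL1A1.

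Biopsy 5 was the lowest for KRT1, KRT10, CCL20 and CCL21. CCL20, an epithelial chemokine for dendritic and type 17 cells, gave 52.1, 169.7, 212, 69.1 and 36.8 scaled counts. CCL21, which guides cells into lymphatic vessels, gave 998, 2148, 2363, 2808 and 691. Both were low in biopsies 1 and 5 and high in biopsies 2 and 3, and CCL21 was also high in biopsy 4. Biopsy 5 was the lowest biopsy in 21 of the 96 genes (21.9%).

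S100A1, a calcium-binding protein known from muscle, separated a single dog. It gave 3039.9, 199, 150.4, 239 and 268 scaled counts. Biopsy 1 was 11.3 times the next biopsy, and the other 4 ranged over 1.78-fold. Biopsy 1 was the highest under all 6 other scalings.

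CCL24, a chemokine for eosinophils, and ADRB1, the beta-1 adrenergic receptor, shared the extremes of S100A1. CCL24 gave 708, 336, 93.1, 185 and 349 scaled counts and ADRB1 gave 165, 55.7, 26.8, 69.1 and 108. Biopsy 1 was the highest and biopsy 3 the lowest for both. ADRB1 had low counts, from 46 to 117 raw.

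Pigment genes were weak and uneven. DCT, an enzyme of melanin synthesis, gave 67.6, 44.8, 535, 205 and 72.5 scaled counts. Biopsy 3 was 2.61 times the next biopsy, which was biopsy 4, and the highest was 11.9 times the lowest. TYR, the rate-limiting enzyme tyrosinase, gave 23, 10, 186, 30 and 40 raw counts and passed background in biopsies 3, 4 and 5. MC1R, the melanocortin receptor that steers pigment type, gave 22, 10, 92, 26 and 31 raw counts and passed in the same 3 biopsies. Biopsy 3 was the highest of the 5 for DCT, TYR and MC1R under every one of the 6 other scalings.

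KIT, a receptor that melanocytes share with mast cells, did not follow the pigment enzymes. It gave 293, 507, 368, 425 and 439 scaled counts, a range of 1.73-fold with biopsy 2 the highest. The raw ratio of DCT to TYR was 1.88 in biopsy 5 and 6.03 in biopsy 4, and in biopsies 1 and 2 TYR was below background. The breed of biopsy 3 was Labrador Retriever and that of biopsy 4 Golden Retriever, and with 1 dog of each breed, breed and dog cannot be told apart.

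**Figure D4:**
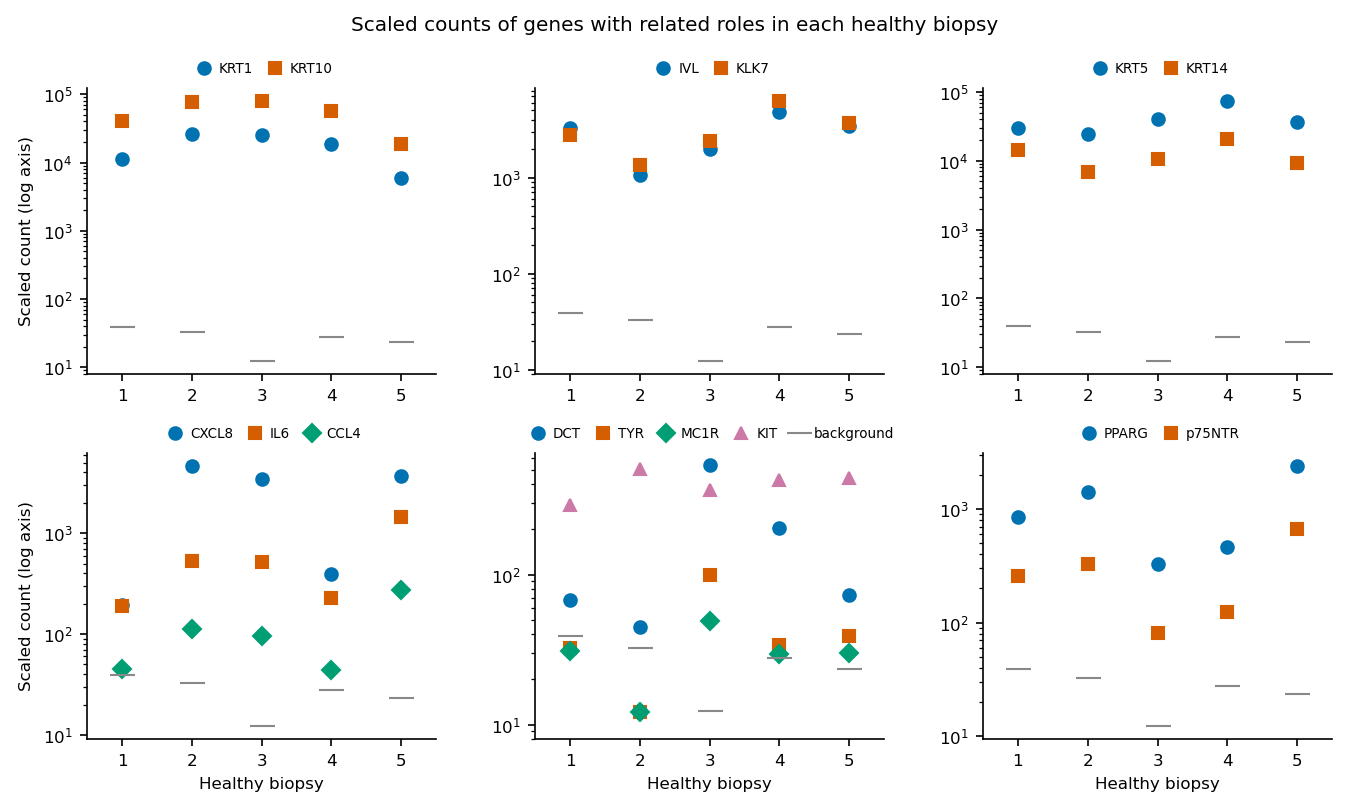
Scaled counts (log axis) of genes with related roles in each healthy biopsy, numbered 1 to 5. Each symbol is 1 biopsy, the colour and shape name the gene, and grey bars mark the scaled background. KRT1 with KRT10 and PPARG with p75NTR run in parallel, CXCL8, IL6 and CCL4 are low in biopsies 1 and 4, and DCT, TYR and MC1R peak in biopsy 3 while KIT does not.

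PPARG, the regulator of fat and sebaceous cell differentiation, and p75NTR, the low-affinity neurotrophin receptor of nerves and hair follicles, had the same order of biopsies. PPARG gave 846, 1408, 328, 468 and 2398 scaled counts and p75NTR gave 255, 327, 81.4, 125 and 663. Biopsy 5 was the highest and biopsy 3 the lowest for both, with ranges of 7.31-fold and 8.15-fold. TACR1, the receptor for substance P, also had its extremes in biopsies 5 and 3, with 98.6, 124, 56.2, 78.1 and 209 scaled counts.

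Of 6 genes of hair follicle and ectodermal signaling, 5 (83.3%) were above background in all 5 biopsies, beside 60% of all 160 genes. None of these 5 ranged over 4-fold. Their median SD was 0.60, beside 0.46 for all 96 genes, and SFRP2 at 3.94-fold and RXRG, a retinoid receptor, at 3.31-fold ranged the most. WIF1, a secreted WNT inhibitor, gave 1542, 1824, 2219, 1649 and 969 scaled counts, and VDR, the vitamin D receptor of keratinocytes and follicles, gave 943, 493, 641, 1398 and 1067. WIF1 was highest in biopsy 3 and lowest in biopsy 5. VDR had the order of IVL and KLK7, with biopsy 4 the highest and biopsy 2 the lowest.

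Interferon genes were detected in part, with 2 of 6 (33.3%), ISG15 and ADAR, above background in all 5 biopsies, beside 60% of all 160 genes. IFNA5, an interferon alpha, gave 78, 2, 397, 169 and 23 raw counts and IFNA7 gave 66, 16, 187, 83 and 25. Both passed background in biopsies 1, 3 and 4, and IFNA7 also in biopsy 5. Interferon alpha genes form a family of near-identical copies, so a probe can capture more than its own gene and the assignment is uncertain. With 2 counts in biopsy 2 no fold is given for IFNA5. ISG15, an interferon-induced protein, gave 95.7, 104, 91.5, 97.4 and 235 scaled counts, with biopsy 5 alone above the others, and biopsy 5 was not among the high biopsies for IFNA5 or IFNA7.

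Over all 160 genes, the rank order was similar in every pair of biopsies. Spearman's rho of raw counts across genes was 0.920 to 0.961 over the 10 pairs, as a description over the same probes, since genes are not independent replicates. Biopsies 1 and 4 were the most alike, with 10 of the 96 genes at least 2-fold apart, and biopsies 1 and 2 the least alike, with 27. The first principal component of the 96 genes held 44.7% of the variance and the second 29.4%. The share of the first was 62.1% without scaling, 76.1% with positive-control scaling and 42.7% to 58.8% with a dog left out. With a dog left out fewer components share the variance, so those shares cannot be set directly beside 44.7%.

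Sex was the only label with more than 1 dog in each class. Between the 3 female and the 2 male dogs, edgeR's quasi-likelihood test called 0 of the 160 genes less the 4 housekeeping genes (0%) after Benjamini-Hochberg adjustment, with 4 genes at an unadjusted p under 0.05, and DESeq2 and limma also called 0, with 10 and 3 genes unadjusted. The groups did not overlap for 27 of these genes (17.3%), where a random order of the dogs would separate them with probability 0.2. The lowest p-values belonged to CCL22, a chemokine for skin-homing T cells, CXCL13, which attracts B cells, and FASLG, a death ligand of cytotoxic cells. CCL22 gave 27, 76 and 44 raw counts in the female dogs and 13 and 22 in the male dogs, with an adjusted p of 0.825 by edgeR. CXCL13 gave 23, 45 and 27 in the female and 13 and 10 in the male dogs, and FASLG 16, 33 and 21 against 7 and 10, with the same adjusted p by edgeR. All 3 genes were below background in both male dogs, and CCL22 and CXCL13 in biopsy 1 and FASLG in biopsies 1 and 5 as well, so that no size of the difference is given. The smallest two-sided p that an exact permutation test of 3 against 2 dogs can give is 0.2.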

How the data were processed

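RNA was extracted from archived, formalin-fixed skin biopsies, hybridized to a custom panel of 160 genes, 4 of them housekeeping genes, and read on a NanoString Sprint instrument. The authors deposited 1 table of raw counts, whole barcode counts per probe with 6 positive and 8 negative controls and no normalization or alignment. The methods name nSolver, and its version is not given in the sources used here. Every column of the table was matched to a sample, and the 5 columns labelled as healthy leg margins were used. Probes were named by 71 accessions, 75 symbols and 14 names set by hand. The fourth housekeeping probe was read as CCZ1, the only reference gene of the methods with no probe of its own name.

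Each biopsy was scaled to its housekeeping geometric mean, and genes were summarized in Python 3.11.15 with pandas 2.3.3 on log2(scaled count + 1). Groups of variable genes were formed by average linkage on 1 minus Pearson's r at a distance of 0.5. Female and male dogs were compared by the quasi-likelihood test of edgeR 4.0.16 (R 4.3.3), with Benjamini-Hochberg adjustment over all genes but the housekeeping genes at 0.05, with no filter on low counts, and with DESeq2 1.42.0 and limma 3.58.1 as alternatives. The procedure was tested on simulated data. It called 11% of genes changed 2-fold, 52% of those changed 4-fold and 91.7% of those changed 8-fold. It also called 0.517% of unchanged genes, so a sex difference of 2-fold would mostly have been missed. P-values set the difference between the sexes against the spread between these dogs, which includes that between blocks and assays.

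The rule for naming genes took in the housekeeping genes, the 20 highest by median rank and those below background in all 5 biopsies. It also took in the 15 most and 8 least variable and the 3 lowest p-values between the sexes. From each gene list it took up to 4 leading members and any member detected in some biopsies only. Many list members that meet the rule are not described in the text. CCL3, CCL5, CCL7, CRHR2, SFRP2, TACR1 and TGFB3 fall outside this rule and were named after their values were seen. A measured gene that meets the rule is not reported here. The genes, lists and comparisons were chosen with earlier results of these data known. Other thresholds for background, scalings, pseudocounts, filters and tests were tried, as was leaving out each dog.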

Additional observations from a re-analysis of the deposited data

Results flagged for a closer look

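Of the genes that meet the naming rule, 109 were above background in any biopsy. In 8 of these (7.34%) the highest or lowest biopsy stood apart from the other 4. This was judged by Dixon's ratio of its gap to the whole range of log2 scaled counts, with a critical value of 0.71. Chance marks about 1 group in 20, and over all 160 genes 11 (6.88%) were marked.

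Biopsy 1 stood above the others for S100A1 (ratio 0.809), for MS4A2, the beta chain of the IgE receptor (0.777, with 398 scaled counts against 245 to 273), and for EDA, the ligand of hair follicle and gland development (0.757, with 176 against 97 to 112). Biopsy 5 stood above the others for ISG15 (0.863, with 235 against 91.5 to 104). Biopsy 3 stood below the others for FOXO1, a transcription factor of insulin signaling (0.767, with 1729.9 against 2236 to 2418). The lowest biopsy for FOXO1 was the same under 4 of the 6 other scalings. Biopsy 2 stood below the others for EDAR, the receptor of EDA (0.795), and for IL4, the type 2 cytokine (0.804). It also did so for IFNK, a keratinocyte interferon (0.738). The raw counts of these 3 genes in biopsy 2 were 16, 4 and 2 against a background of 26.8. EDAR passed background in biopsies 3, 4 and 5 only. IL4 and IFNK passed it in biopsy 3 alone, so most of the values compared for them were also below background.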

How the results depend on the processing

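Under the other background thresholds 88 to 115 genes were above background in all 5 biopsies, and 96 to 102 with a dog left out. Genes below background in every biopsy numbered 3 with the mean of the negative controls as threshold, and 10 to 36 with a dog left out, the 36 without biopsy 3. Genes with a range of at least 4-fold numbered 31 without scaling, 68 with positive-control scaling, 37 among all genes with no filter, and 14 to 18 with a dog left out. The median SD was 0.94 with positive-control scaling and 0.40 to 0.48 with a dog left out, and the first component then held 76.1% and 42.7% to 58.8%. The shares with a dog left out are spread over fewer components and are not directly comparable. The cause of these shifts was not tested. Positive-control scaling made biopsy 3 the highest in 88 of the 96 genes. With a dog left out, 18 to 20 of the 20 highest-ranked genes were shared. No sex difference was called under any of the 14 alternatives, with a lowest adjusted p by edgeR of 0.0581 without scaling. No paired analysis was possible because the healthy biopsies form 1 group and each dog gave 1 biopsy.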
